A study of Mus musculus with 4 samples.

Results

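The natural killer (NK) receptor genes examined here were Ncr1, Klrb1c, Klrk1, Klrd1, Klrc1 and Klre1, together with Eomes, a transcription factor of NK cells. They were chosen by gene symbol, and each of the 7 symbols matched exactly 1 of the 32285 genes in the tables of the spatial sections. UMI counts (unique molecular identifiers, each marking 1 captured RNA molecule) came from 4 Visium sections, each from its own MC38 tumor, in which arrayed spots catch the RNA of the overlying tissue. The MC38 line derives from a colon carcinoma of a C57BL/6 mouse and was injected subcutaneously into F1 females of 8 to 12 weeks of age. In CC075F1 hosts (2 sections), which the study classes as responders to PD-1 blockade, the genotype was C57BL/6J x CC075/UncJ. In CC080F1 hosts (2 sections), classed as non-responders, it was C57BL/6J x CC080/TauUncJ. The second parent of each cross came from the Collaborative Cross, a panel of recombinant inbred strains. All 4 mice carried tumors of 75 to 110 mm3 when given 200 µg of the isotype control antibody 2A3, and tumors were collected after 48 hours, so no section had seen PD-1 blockade. The comparison asked how these genes differed between untreated-state tumors of the strains, and whether they were found in the same spots.

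NK cells are innate lymphocytes that weigh signals from activating and inhibitory surface receptors before killing a target. Ncr1 encodes NKp46, an activating receptor largely restricted to NK cells and related innate lymphoid cells, and Klrb1c encodes NK1.1, the classical NK marker of C57BL/6 mice. Klrk1 encodes NKG2D, an activating receptor for stress-induced ligands such as the Raet1 and H60 families, which signals through the adaptors Hcst (DAP10) and Tyrobp (DAP12). Klrd1 encodes CD94, which pairs with the inhibitory NKG2A (Klrc1) to read the non-classical MHC molecule Qa-1 (H2-T23). Klre1 encodes a further lectin-like receptor of NK cells. Activated CD8 T cells can carry NKG2D, CD94, NKG2A and Eomes as well, so these genes are not particular to NK cells.

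In the GENCODE vM21 annotation (GRCm38), 5 of the 7 genes lay in the NK gene complex of chromosome 6. Klre1 (chr6:129577905-129585827, plus strand), Klrd1 (chr6:129591782-129598775, plus), Klrk1 (chr6:129610323-129623864, minus) and Klrc1 (chr6:129666015-129678973, minus) were neighbors within 101.1 kb. Klrb1c lay apart from them at chr6:128778485-128789215 on the minus strand. Ncr1 was at chr7:4337724-4345164 and Eomes at chr9:118478212-118486132, both on the plus strand. Of the distinct 50-base stretches of Klrc1 transcripts, 36.55% also occurred in the paralog Klrc2, and 12.35% of those of Klrb1c occurred in the overlapping predicted gene Gm44511 on the same strand, so counts of these 2 genes are uncertain where reads fell there. The other 5 genes shared at most 2.1% of such stretches with any other gene on either strand. Whether reads from the hosts' Collaborative Cross alleles of these and related genes align equally well in both strains could not be examined from counts.

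Promoter sequences (RefSeq, GRCm38.p6, 250 bases before to 50 after the start) were found for 6 of the 7 genes, all but Klrd1. They were searched on both strands for the hexamer TGTGGT, the core bound by RUNX factors, which take part in NK and CD8 T cell development. It was present for 5 of the 6 genes (Ncr1, Klrb1c, Klrk1, Klrc1 and Klre1, not Eomes), and in 16.8% of all 32851 promoters of the same length. A gene counted if any of its promoters matched, whereas the percentages are of single promoters. A gene with several promoters, such as Klre1, thus had more chances to match. The T-box core GTGTGA, of the kind bound by Eomes and T-bet, was present for Ncr1 and Klre1 and in 14.5% of all promoters, and the ETS core GGAAGT for Klrb1c and in 23.8%. A match describes the letters alone and was not tested as a binding site. The stretches around the RUNX core are shown because this element was common to most of the genes described below. They are written 5′ to 3′ on the strand of the gene, with the core or its reverse complement in capitals. The stretch of Klrb1c lay before the RefSeq start but, in GENCODE, inside an intron of a longer Klrb1c transcript and within the span of Gm44511. The stretch of Klre1 is not shown since it overlapped an annotated Klre1 exon.
Ncr1, distal (chr7:4337512-4337571, plus): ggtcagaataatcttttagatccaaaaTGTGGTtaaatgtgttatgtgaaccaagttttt
Ncr1, proximal (chr7:4337647-4337706, plus): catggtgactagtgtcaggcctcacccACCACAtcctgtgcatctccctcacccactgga
Klrb1c (chr6:128788698-128788757, minus): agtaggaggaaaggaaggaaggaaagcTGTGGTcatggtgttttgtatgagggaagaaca
Klrk1 (chr6:129623961-129624020, minus): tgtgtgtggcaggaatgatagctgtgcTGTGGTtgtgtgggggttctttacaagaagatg
Klrc1 (chr6:129679028-129679087, minus): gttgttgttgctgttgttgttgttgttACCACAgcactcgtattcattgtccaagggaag

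The sections held 2710 to 3276 spots and 82594649 to 146460975 UMIs, with median depths of 31139 to 41740 UMIs per spot. The deepest was CC075F1 replicate 2, which also was the only section with spots over skeletal muscle, skin or fat (46 spots in which markers of these tissues exceeded 0.5% of UMIs). No pair of sections agreed within counting noise, so each section counted as a separate sample. By the study's methods, the 4 tissue blocks were sectioned onto a Visium slide and their libraries pooled before sequencing. The sources used here do not tie a section to a batch of its own.

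All 7 genes were detected in every section at low levels, given here as CPM, a gene's UMIs in each 1000000 UMIs of its section. Together they made up 26.6 CPM in CC075F1 replicate 1, 25.2 in CC075F1 replicate 2, 8.83 in CC080F1 replicate 1 and 24.5 in CC080F1 replicate 2. CC080F1 replicate 1 was thus the section with the least, and CC080F1 replicate 2 reached the level of the CC075F1 sections. In these bulk sums, fewer cells of a type and less RNA per cell cannot be told apart.

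The genes fell into those that ran with CC080F1 replicate 2 and those that were higher in both CC075F1 sections. Ncr1 was at 0.448 and 0.765 CPM in CC075F1 replicates 1 and 2 (37 and 112 UMIs) and at 0.353 and 2.61 CPM in CC080F1 (33 and 294 UMIs). Its highest and lowest sections were thus both CC080F1, and the strains overlapped. Klrb1c, the other classical NK marker, was at 0.872 and 0.792 CPM in CC075F1 and at 0.374 and 1.88 CPM in CC080F1, the same order of extremes. Eomes was at 1.51 and 0.915 CPM in CC075F1 and at 1.37 and 2.62 CPM in CC080F1, again with its highest value in CC080F1 replicate 2 and with overlapping strains.

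The 4 neighboring genes of the NK complex were higher in both CC075F1 sections than in either CC080F1 section. Klrk1 was at 8.74 and 7.97 CPM in CC075F1 and at 2.08 and 5.51 CPM in CC080F1 (means 8.35 ± 0.547 and 3.80 ± 2.42, SD, n = 2 each). Klrd1 was at 9.02 and 9.75 CPM in CC075F1 and at 3.12 and 8.33 CPM in CC080F1, where replicate 2 came close to the CC075F1 sections. Its partner Klrc1 was at 2.72 and 2.36 CPM in CC075F1 and at 0.769 and 1.12 CPM in CC080F1 (means 2.54 ± 0.256 and 0.944 ± 0.247, SD, n = 2 each). Klrc1 was the gene for which the gap between strains was widest against the spread within them. Klre1 was at 3.29 and 2.68 CPM in CC075F1 and at 0.759 and 2.46 CPM in CC080F1, with replicate 2 of CC080F1 just under the lower CC075F1 section.

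**Figure D1:**
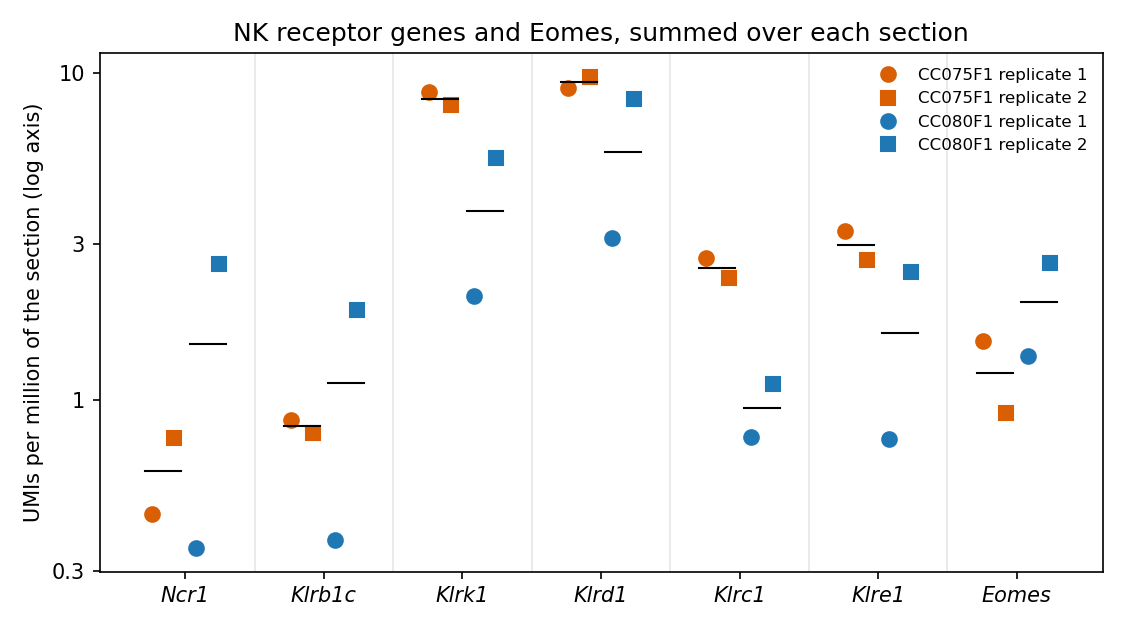
CPM of each section (log axis) for the 7 genes, with 1 point per section and a bar at the mean of each strain. Klrk1, Klrd1, Klrc1 and Klre1 lie higher in both CC075F1 sections, whereas Ncr1, Klrb1c and Eomes are highest in CC080F1 replicate 2 at 2.61, 1.88 and 2.62.

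None of the 7 genes passed the test of the strains in edgeR's quasi-likelihood fit over 15572 genes (Benjamini-Hochberg adjusted p under 0.05), in which 0.0899% of all genes passed. At an unadjusted p under 0.05, 2 of the 7 passed, Klrk1 and Klrc1, both higher in CC075F1, against 5.43% of all genes in either direction and 3.19% in this one. The log2 fold change (CC075F1 over CC080F1) was 1.73 for Klrc1 (SE 0.39, adjusted p = 0.357) and 1.43 for Klrk1 (SE 0.47, adjusted p = 0.709). For Klre1 it was 1.17 (SE 0.56) and for Klrd1 1.03 (SE 0.48), each with an adjusted p of 0.830 in edgeR. For Ncr1 it was -0.93 (SE 0.89), for Eomes -0.47 (SE 0.44) and for Klrb1c -0.16 (SE 0.72), so each of these estimates lay within about 1 standard error of 0. Sections of the strains did not overlap, with CC075F1 higher, in TMM-scaled CPM for 4 of the 7 genes, where 16.2% of all genes did so, and for none with CC075F1 lower, where 18.3% did so.

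A single section decided much of this. Without CC080F1 replicate 2, the fit had 1 CC080F1 section and assumed it to vary as the others do. The log2 fold change in edgeR was then 2.40 for Klrk1, 2.01 for Klrd1, 2.36 for Klre1 and 2.12 for Klrc1. Ncr1 then had a log2 fold change of 1.26, Klrb1c 1.55 and Eomes 0.17, all with the opposite sign. Without CC080F1 replicate 1, by contrast, the values were 0.86 for Klrk1, 0.46 for Klrd1, 1.44 for Klrc1, 0.53 for Klre1 and -1.76 for Ncr1. Over all 12 alternatives the adjusted p ran from 0.00033 to 1.00 for Klrk1 and from 0.00301 to 0.912 for Klrc1. Klrk1, Klrd1, Klrc1 and Klre1 kept a positive log2 fold change in all 12.

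Genes that work with these receptors were counted by list. All 9 adaptors and signaling molecules tested had a positive log2 fold change (median 1.11, against -0.02 over all genes tested). Of all 15572 genes, 7404 were positive, and none of the 9 passed the adjusted threshold. In the share of spots at equal depth (10000 UMIs, described below), Hcst, Tyrobp, Fcer1g, Cd247 and Sh2d1b1 were higher in both CC075F1 sections. The strains overlapped in that share for Zap70, Syk, Ptpn6 and Vav1, with ratios of strain means of 1.485, 0.990, 1.17 and 0.979. The lowest unadjusted p among the 9 tested, all in edgeR, were those of Sh2d1b1 (1.60, SE 0.28, adjusted p = 0.171), Hcst (1.11, SE 0.27, adjusted p = 0.396) and Tyrobp (1.24, SE 0.43, adjusted p = 0.756). Sh2d1b1 encodes EAT-2, a signaling adaptor of NK and myeloid cells. Tyrobp and Fcer1g are also abundant in macrophages, and both stood above 278 CPM in every section. Of the ligands, 3 of 9 tested had a positive value (median -0.27) and none passed. The lowest unadjusted p belonged to Clec2i, a ligand of NKR-P1 receptors, at 0.206 and 0.246 CPM in CC075F1 and 1.08 and 1.63 CPM in CC080F1 (log2 fold change -2.23, adjusted p = 0.357 in edgeR), followed by Clec2g (-2.24, adjusted p = 0.682) and H2-T23, which encodes Qa-1 (0.40, adjusted p = 0.830). The NKG2D ligand gene Ulbp1 was at 36.3 and 23.1 CPM in CC075F1 and at 48.5 and 38.4 CPM in CC080F1, and H60c had no UMI in any section.

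The other lectin-like receptors of the NK complex did not move together. Of 22 listed, 21 were in the tables and 16 were tested, 8 with a positive log2 fold change (median 0.20) and none past the adjusted threshold. The 3 with the lowest unadjusted p in edgeR were Klra2 (1.18, SE 0.29, adjusted p = 0.416), Klrb1b (1.79, SE 0.44, adjusted p = 0.430) and Klra17 (1.21, SE 0.35, adjusted p = 0.571). Klrc2, the activating relative of Klrc1, had 27 and 66 UMIs in CC075F1 and 11 and 25 in CC080F1. On the other side were Klra1 (-2.35) and Klra5 (-1.98), and Klra1 had 121 UMIs in CC080F1 replicate 2 against 11 to 15 in each other section. Klra1 thus shared with Ncr1 and Klrb1c the high value in that section.

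Genes of NK identity and killing did not share a common order of the sections. Of 18 tested, 12 had a positive value (median 0.30) and none passed. Nkg7, a cytotoxic granule protein of NK and T cells, was at 18.6 and 25.1 CPM in CC075F1 and at 4.33 and 7.26 CPM in CC080F1 (log2 fold change 2.27, SE 0.40, adjusted p = 0.179 in edgeR). Slamf7 (1.86, adjusted p = 0.347) and Ifng (2.06, adjusted p = 0.348) followed. Gzma (granzyme A), in contrast, was at 3.03 and 9.08 CPM in CC075F1 and at 1.33 and 19.4 CPM in CC080F1, and Prf1 (perforin) at 4.26 and 6.62 CPM in CC075F1 and at 2.31 and 17.5 CPM in CC080F1. Both were thus highest in CC080F1 replicate 2 and lowest in CC080F1 replicate 1, as Ncr1 and Klrb1c were. Of the cytokines and homing receptors listed, 5 of 7 tested were positive (median 0.28), none passed, and Il15, which sustains NK cells, was at 16.2 and 12.3 CPM in CC075F1 and 12.7 and 13.2 CPM in CC080F1 (log2 fold change 0.43, adjusted p = 0.830 in edgeR). Il18, which activates NK cells, had a log2 fold change of -0.43 and Il15ra, which presents Il15, 0.28, with adjusted p of 0.830 and 0.831.

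Of the T cell markers, all 11 had a positive log2 fold change (median 1.65) and 1 passed, Cd3g (2.42, SE 0.27, adjusted p = 0.0491 in edgeR), a chain of the T cell receptor complex. Their summed level was 84.9 and 74.7 CPM in CC075F1 and 24.4 and 29.5 CPM in CC080F1, and no defining marker was at 0. Their sum in CC080F1 replicate 2 thus stayed well below both CC075F1 sections, where Ncr1 and Klrb1c did not, although the T cell receptor gene Trbc1 was at 2.01 and 8.69 CPM in the CC080F1 sections. Their part in the higher Klrk1, Klrd1, Klrc1 and Klre1 of the CC075F1 sections was not tested. Macrophage markers ran from 1970 to 3312 CPM in sum, with 5 of 6 positive and none passing, the lowest unadjusted p being those of C1qa (0.82), Lyz2 (0.87) and Cd68 (0.46). Of the skin, muscle and fat markers, 6 of 10 tested were positive and none passed, and the fat genes Cfd (-2.80), Adipoq (-2.43) and Plin1 (-4.57) had the lowest unadjusted p.

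Expressed per UMI of Ncr1, the 4 neighboring genes of the NK complex were higher in CC075F1. Klrk1 was counted 19.5 and 10.4 times per Ncr1 UMI in CC075F1 and 5.91 and 2.11 times in CC080F1. Klrc1 was counted 6.08 and 3.09 times in CC075F1 and 2.18 and 0.429 times in CC080F1. Klrk1, Klrd1, Klrc1 and Klre1 per Ncr1 UMI did not overlap between the strains (exact two-sided permutation test over sections, p = 0.333, the smallest p that 2 against 2 allows), and Klrb1c and Eomes per Ncr1 UMI did. Of all genes, 2.34% were higher per Ncr1 UMI in both CC075F1 sections. The high Ncr1 count of CC080F1 replicate 2 lowers this ratio for every gene of that section.

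Per UMI of Cd3e, a T cell receptor chain, the strains overlapped for Klrk1, Klrd1, Klrc1 and Klre1, where 94.6% of all genes were lower in both CC075F1 sections, which held more Cd3e. Klrc1 was counted 0.726 and 0.908 times per Cd3e UMI in CC075F1 and 0.600 and 0.869 times in CC080F1, the narrowest range of the 7 genes. Klrk1 was counted 2.33 and 3.06 times in CC075F1 and 1.63 and 4.28 times in CC080F1. Ncr1 by this measure was at 0.119 and 0.294 in CC075F1 against 0.275 and 2.03 in CC080F1, so that CC080F1 replicate 2 held several times as many Ncr1 UMIs for each Cd3e UMI as any other section. Eomes per Cd3e UMI was the only ratio of the 7 without overlap, at 0.403 and 0.352 in CC075F1 and 1.07 and 2.03 in CC080F1 (exact permutation p = 0.333). The choice of T cell gene mattered: per UMI of Cd3g, which passed the strain test, Ncr1, Klrb1c, Klrd1, Klrc1 and Eomes were all lower in both CC075F1 sections, as 97.7% of all genes were, and Klrk1 and Klre1 overlapped. Klrc1 was counted 0.225 and 0.208 times per Cd3g UMI in CC075F1 and 0.238 and 0.483 times in CC080F1.

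Spots differed in depth, so the share of spots with a UMI was taken after thinning every spot to 10000 UMIs. Spots below that depth (53 to 205 per section) were left out, and the intervals are exact binomial at 95% and cover counting error alone. Klrk1 was then present in 8.50% (7.45 to 9.65) and 8.15% (7.23 to 9.16) of spots in CC075F1, and in 2.18% (1.67 to 2.80) and 5.47% (4.68 to 6.35) in CC080F1. Neither CC080F1 interval reached those of CC075F1. Klrc1 was present in 2.79% (2.19 to 3.50) and 2.72% (2.18 to 3.34) in CC075F1, and in 0.774% (0.480 to 1.18) and 1.16% (0.804 to 1.61) in CC080F1, likewise apart. For Klrd1 the shares were 8.53% (7.47 to 9.68) and 10.3% (9.23 to 11.4) in CC075F1 and 3.13% (2.51 to 3.85) and 7.91% (6.96 to 8.94) in CC080F1. For Klre1 they were 3.49% (2.81 to 4.28) and 3.05% (2.48 to 3.71) in CC075F1 and 0.826% (0.522 to 1.24) and 2.43% (1.91 to 3.05) in CC080F1. For these latter genes the interval of CC080F1 replicate 2 overlapped that of a CC075F1 section, so these neighbors in the order did not differ beyond counting error.

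The remaining genes were sparse. Ncr1 was present in 0.511% and 0.731% of spots in CC075F1 and in 0.353% and 2.40% (1.88 to 3.02) in CC080F1. Klrb1c was present in 0.930% and 0.888% in CC075F1 and in 0.386% and 1.99% (1.51 to 2.55) in CC080F1. Eomes was present in 1.53% and 0.880% in CC075F1 and in 1.36% and 2.61% (2.06 to 3.25) in CC080F1. For Ncr1 and Klrb1c the interval of CC080F1 replicate 2 lay above those of the other 3 sections. Shares were higher in both CC075F1 sections for 4 of the 7 genes, against 7.31% of all genes, whereas 30.7% of all genes were lower in both. The ratio of the strain means was 2.85 for Klrc1, 2.18 for Klrk1, 2.01 for Klre1 and 1.70 for Klrd1 (each with an exact permutation p of 0.333 over sections). At full depth, without thinning, Klrk1 was present in 22.2% and 26.2% of CC075F1 spots and in 6.46% and 16.1% of CC080F1 spots, and the strains overlapped for Klrd1, leaving 3 of 7.

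**Figure D2:**
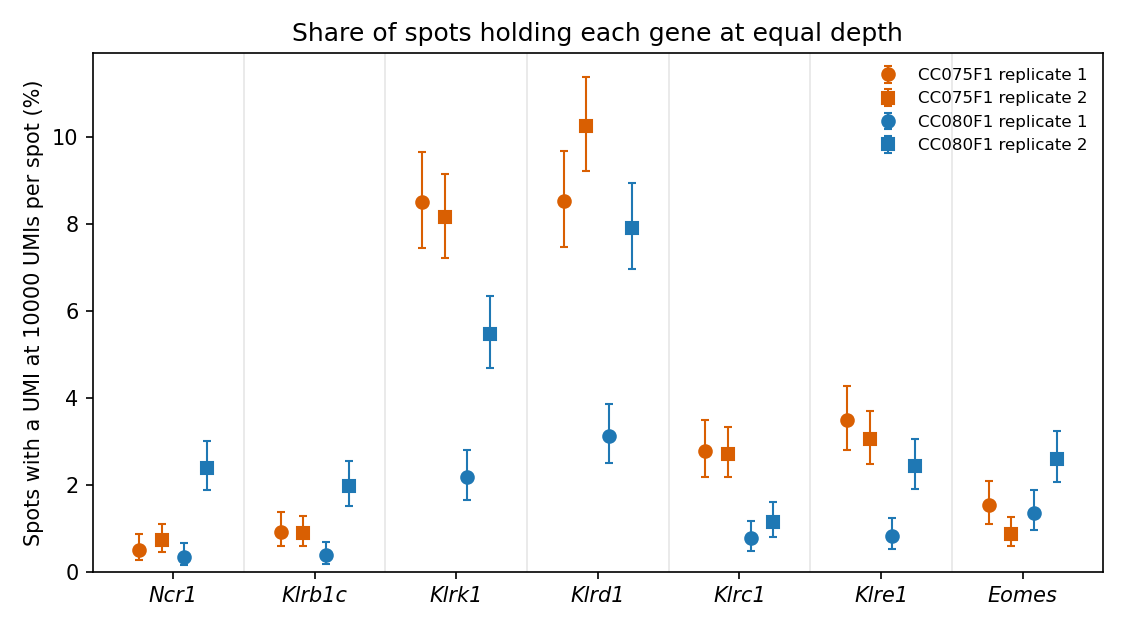
Share of spots (%) with a UMI of each gene after thinning to 10000 UMIs per spot, 1 point per section, with exact 95% binomial intervals that cover counting error alone. Klrk1 and Klrc1 lie higher in both CC075F1 sections with no overlap of intervals, and Ncr1 stands out in CC080F1 replicate 2 at 2.40%.

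Where a gene was found, it was mostly as 1 UMI. The mean UMIs per positive spot at full depth ran from 1.03 to 1.12 for Ncr1 and from 1.08 to 1.36 for Klrk1, and the most in any spot was 9, for Klrd1 in both CC075F1 sections. At least 1 of the 7 genes was found in 50.0% and 57.1% of CC075F1 spots and in 22.6% and 47.9% of CC080F1 spots. Spots with 3 or more of the genes numbered 73 and 214 in CC075F1 and 14 and 192 in CC080F1. No spot held all 7, and 2 spots, both of CC080F1 replicate 2, held 6.

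**Figure D3:**
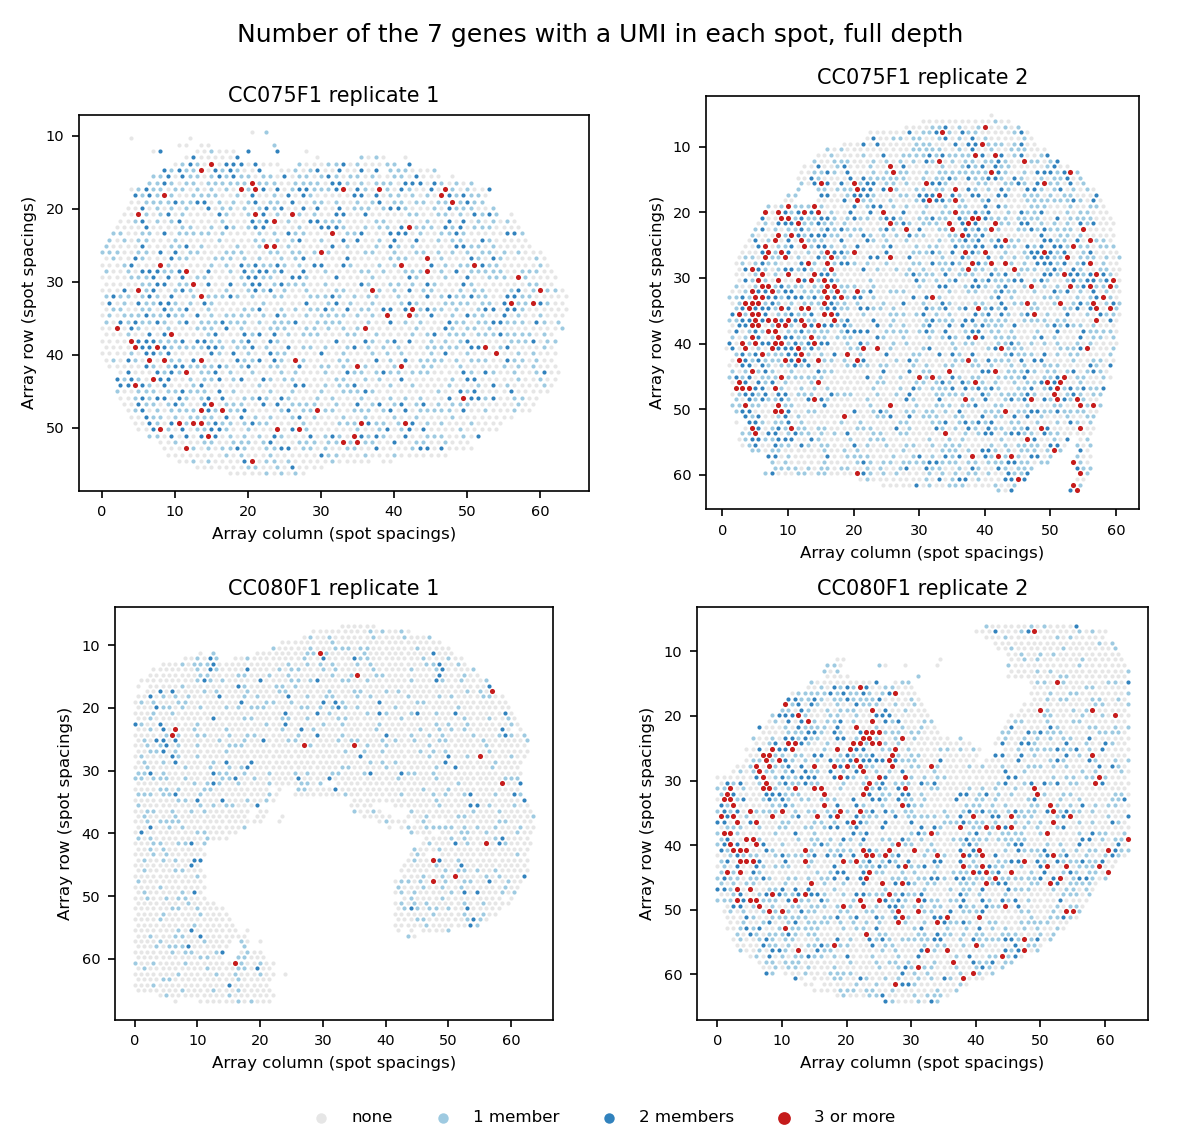
Spots of the 4 sections on the slide grid (axes in spot spacings), colored by how many of the 7 genes had a UMI at full depth. Spots with 3 or more (red) number 73 and 214 in the CC075F1 sections against 14 and 192 in those of CC080F1, and depth differs between spots.

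Co-occurrence was measured at equal depth. Spots of each section were divided into 10 strata of total UMIs, and the spots shared by a pair of genes were set against the number expected if the genes were independent within strata. All 21 pairs of the 7 genes had more shared spots than expected over the 4 sections together, with ratios from 1.15 to 1.84 and a median of 1.38. The lower 95% bound (exact Poisson, counting error alone, spots not being replicates) was above 1 for 17. The ratio was above 1 in all 4 sections for 12 pairs, in 3 for 7 and in 2 for 2. As background, the share of 13636 genes whose ratio with a given member was above 1 in all 4 sections was 15.0% for Ncr1, 13.1% for Klrb1c, 24.2% for Klrk1, 22.7% for Klrd1, 14.6% for Klrc1, 14.2% for Klre1 and 12.0% for Eomes. Thinned to 10000 UMIs per spot, all 21 pairs stayed above 1 with a median of 1.49.

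The highest ratio was that of Ncr1 with Eomes, at 66 shared spots against 35.9 expected (1.84, 1.42 to 2.34), and it was above 1 in every section (1.25, 2.17, 1.93 and 1.81). Most of these spots, 51 against 28.1 expected, were in CC080F1 replicate 2. The replicate 1 sections held 2 against 1.60 (CC075F1) and 3 against 1.55 (CC080F1), too few to show an excess. Klrb1c with Klre1 followed at 70 against 38.5 (1.82, 1.42 to 2.30), although CC075F1 replicate 1 was below 1 at 0.830. Klrb1c with Eomes was at 50 against 28.9 (1.73, 1.29 to 2.28). The 2 classical NK markers, Ncr1 and Klrb1c, shared 43 spots against 25.0 expected (1.72, 1.24 to 2.32), all of them in the deeper replicate 2 sections (12 and 31), while 0.978 and 0.416 were expected in the replicate 1 sections. Those 2 sections held too few positive spots of both genes to show an excess.

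Partners in a receptor did not stand out from the other pairs. Klrd1 and Klrc1, which encode the 2 chains of CD94/NKG2A, shared 252 spots against 188 (1.34, 1.18 to 1.52), above 1 in all 4 sections. Klrk1 and Klrd1 shared 727 against 564 (1.29, 1.20 to 1.39), and Klrc1 and Klre1 105 against 68.1 (1.54, 1.26 to 1.87). The pairs whose lower bound did not pass 1 were Klrc1 with Eomes (1.15), Klre1 with Eomes (1.23), Ncr1 with Klrc1 (1.29) and Klrb1c with Klrc1 (1.37). Summed over pairs, shared spots numbered 642 against 545 expected in CC075F1 replicate 1 (ratio 1.18) and 1354 against 988 in replicate 2 (1.37). In CC080F1 they numbered 148 against 84.5 (1.75) and 1144 against 793 (1.44), so the sections with the lowest and the highest ratio were the 2 labeled replicate 1.

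**Figure D4:**
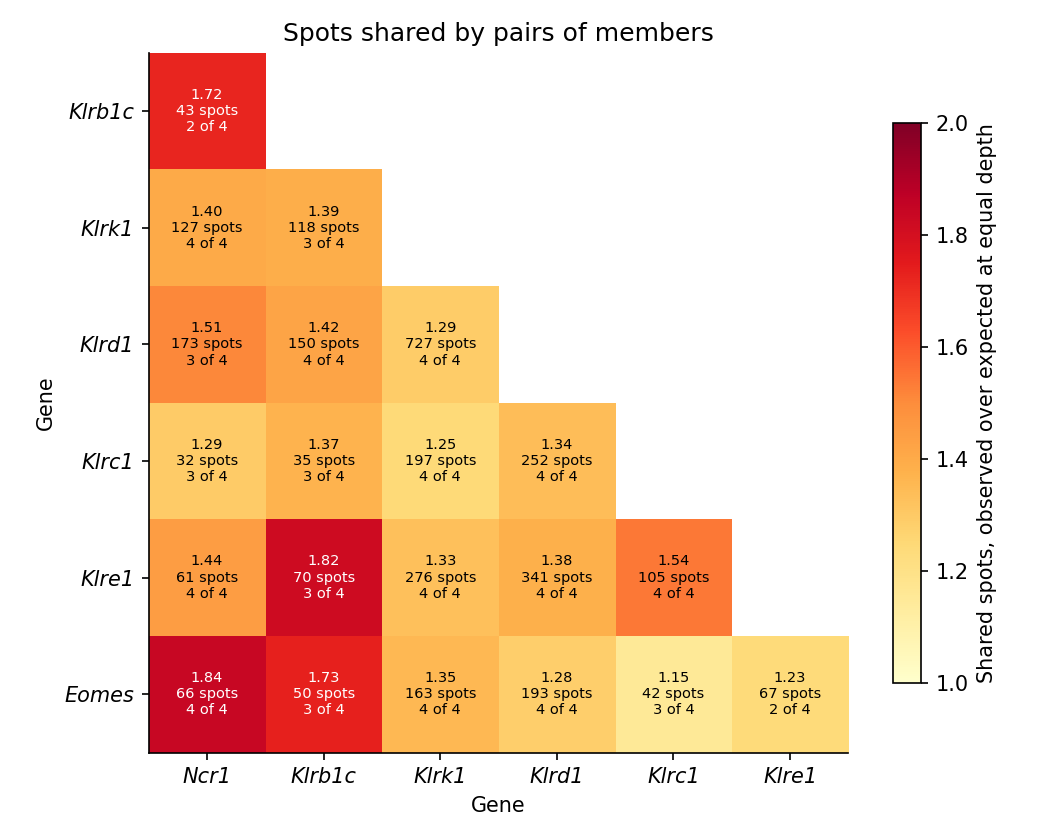
Observed over expected shared spots for the 21 pairs at equal depth, with the number of shared spots and the number of sections above 1 written in each cell. All pairs lie above 1, from 1.15 for Klrc1 with Eomes to 1.84 for Ncr1 with Eomes.

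Spots with these genes also held T cell and cytotoxic genes more often than expected. Over the 11 T cell markers, the median ratio ran from 1.18 with Klrb1c to 1.39 with Klrc1, and the lower bound was above 1 for 9 markers each with Klrk1, Klrd1, Klrc1 and Klre1, for 7 with Ncr1, for 3 with Eomes and for 2 with Klrb1c. Of the 13636 genes, the lower bound was above 1 for 8.79% with Klrk1, 6.37% with Klrd1, 2.44% with Klrc1, 3.78% with Klre1, 4.35% with Ncr1, 1.77% with Eomes and 4.03% with Klrb1c. Over the 18 genes of NK identity and killing, the median ran from 1.19 with Eomes to 1.43 with Ncr1. Macrophage markers, found in most spots, gave medians of 1.00 to 1.01. For genes in nearly every spot, such as Lyz2 and C1qa, this ratio cannot rise far above 1, so it does not tell where the members lie. T cells and NK cells in the same spot therefore could not be told apart by these counts, since 1 spot can hold several cells. Of the 12 skin, muscle and fat markers, the lower bound was above 1 for 3 each with Klrb1c and Klrk1, for 2 with Klrd1, for 1 with Ncr1 and for none with Klrc1, Klre1 and Eomes. In CC075F1 replicate 2, the section with spots over these tissues, Klrb1c had ratios of 1.83 with Acta1, 2.20 with Ckm, 3.07 with Myh4 and 2.31 with Tnnt3, all genes of skeletal muscle. In the same order, Ncr1 was at 1.57, 1.84, 2.06 and 2.35 and Klrk1 at 1.29, 1.19, 1.49 and 1.35. Klrc1 was at 0.954, 0.810, 0.625 and 0.908, and Klrd1, Klre1 and Eomes ran from 0.902 to 1.45.

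The genes whose spots most resembled those of each member (genes in at least 20 spots of every section, above 1 in all 4, ranked by the lower bound) differed between members. For Klrd1 they included the lymphocyte genes Klrg1 (1.58), Klri2 (1.66), Prkcq (1.58) and Ctsw (1.39). Prkcq encodes a kinase of T cell receptor signaling, and Klrg1 an inhibitory receptor of mature NK and effector T cells. For Klre1 they were Klra7 (1.84), Ms4a4b (1.46), Gimap3 (1.55), Ctsw (1.50) and Cd3e (1.56), and for Eomes they were St6galnac3 (2.45), Ncr1 (1.84), Cd69 (1.61), Tbx21 (1.74) and Trbc1 (1.38). Tbx21 encodes T-bet, the T-box factor that acts beside Eomes in NK and effector T cells.

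For Klrk1 they were Serpina3f (1.48), Slain1 (1.71), Ccl22 (1.54), Ehd3 (1.52) and Jaml (1.49), and for Klrc1 they were Mrgprf (2.27), Apol6 (1.74), Tox (1.75), Gm16118 (1.99) and Dpf3 (2.35). Some of these rested on few shared spots with Klrc1, namely Mrgprf on 22, Gm16118 on 26 and Dpf3 on 14. Ccl22 is a chemokine of dendritic cells and Tox a factor of chronically stimulated T cells. The sparsest genes had mostly other partners. For Klrb1c they included Srpx2 (3.13), Smoc2 (2.57), Fmod (2.68) and Sfrp1 (2.37), of which Smoc2, Fmod and Sfrp1 encode secreted or matrix proteins of stroma. For Ncr1 they were Clip3 (2.44), Hsd11b1 (1.98), Atp1b2 (2.27), Eomes (1.84) and Mfap2 (1.97), with 25 shared spots for Clip3 and 23 for Atp1b2.

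Placing in the tissue was read from the level within 3 grid steps of a position off tissue (the edge, which includes the rim of the empty area that reached into both CC080F1 sections) over that of the interior. Klrb1c was above 1 in all 4 sections, at 1.54 and 3.01 in CC075F1 and 1.63 and 1.01 in CC080F1, but only in CC075F1 replicate 2 did its interval (1.97 to 4.51) lie above 1. Of 14931 genes with UMIs in both zones of every section, 17.7% were above 1 in all 4. The high value came from the section with spots over muscle, skin or fat, all 46 of which counted as edge, and without them it was 2.84 (1.83 to 4.34). Ncr1 was at 1.49 and 2.02 in CC075F1 and at 1.06 and 0.763 in CC080F1. Klre1 was at 1.47 (1.06 to 2.00) and 1.45 (1.10 to 1.88) in CC075F1 and at 0.497 (0.243 to 0.934) and 0.596 (0.388 to 0.883) in CC080F1. It was thus denser at the edge in CC075F1 and denser in the interior in CC080F1, with no interval including 1. Klrc1 ran the same way, at 1.73 (1.23 to 2.39) and 1.26 (0.929 to 1.69) in CC075F1 and at 0.698 (0.374 to 1.23) and 0.662 (0.351 to 1.16) in CC080F1, although only the first of these intervals excluded 1. Klrd1 ran from 1.05 to 1.26 over the sections and Klrk1 from 0.912 to 1.55. Ratios were higher in both CC075F1 sections than in either CC080F1 section for 6 of the 7 genes, all but Klrb1c, where 36.6% of the 14931 genes were so. The change of side seen for Klre1 and Klrc1 was found for 11.0% of them. For no gene could the difference between strains reach an exact permutation p below 0.333.

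**Figure D5:**
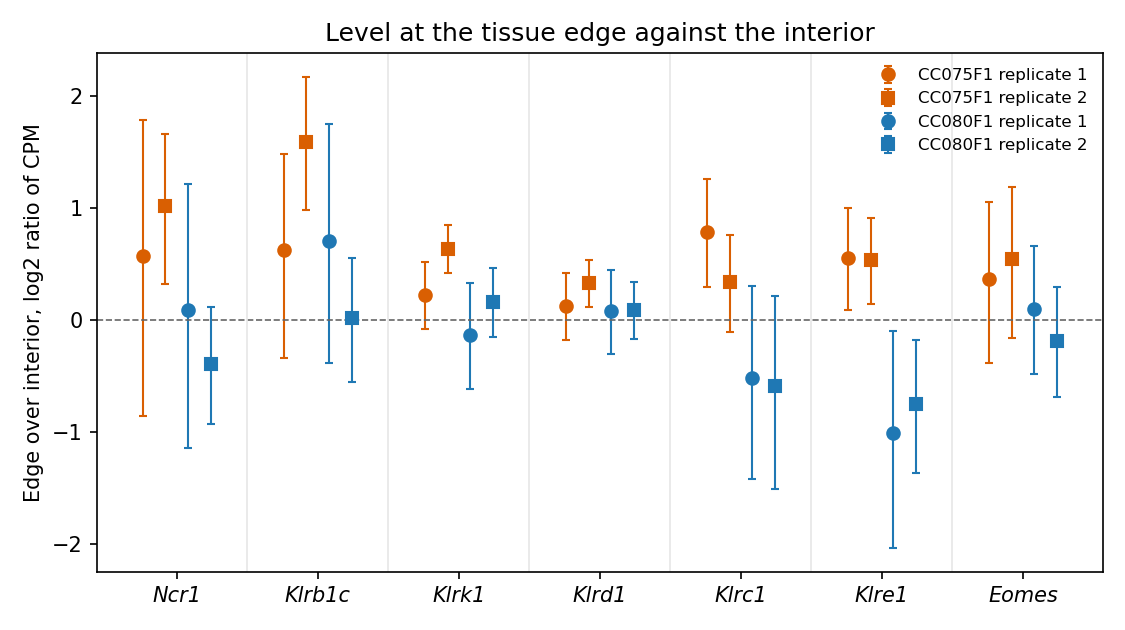
Log2 ratio of CPM at the tissue edge (within 3 grid steps of a position off tissue) over the interior, 1 point per section, with exact 95% intervals for counting error. Klre1 and Klrc1 lie above 0 in both CC075F1 sections and below 0 in both CC080F1 sections, by log2 values of 0.56 and 0.53 against -1.01 and -0.75 for Klre1.

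Neighboring spots were both positive for Klrk1 more often than expected from the share of positive spots in each of the 10 depth strata, at 459 against 419 and 833 against 677 adjacent pairs in CC075F1 and 48 against 33.8 and 336 against 263 in CC080F1. For Klrb1c the counts were 6 against 5.78 and 24 against 12.0 in CC075F1 and 3 against 1.18 and 40 against 39.2 in CC080F1. For Eomes they were 13 against 16.1, 17 against 15.6, 15 against 14.7 and 76 against 79.4 in the same order. Observed pairs of Klrk1 thus outnumbered expected pairs in all 4 sections, by 1.09- to 1.42-fold. Klrb1c was at 1.04, 2.00, 2.54 and 1.02 in the same order, the third on 3 pairs alone. It was thus near 1 in CC075F1 replicate 1 and CC080F1 replicate 2. Eomes was above 1 in 2 of 4 sections, by less than 1.1-fold. No interval was taken for these counts. In the same order, observed over expected was 1.16, 1.09, 2.01 and 1.10 for Klrc1 and 0.986, 1.14, 1.12 and 1.13 for Klrd1. It was 0.999, 1.14, 1.74 and 1.05 for Klre1 and 0, 1.72, 0.890 and 1.29 for Ncr1. No share over all genes was taken for this measure.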

How the data were processed

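The authors aligned the reads of 4 fresh frozen Visium sections with Space Ranger 1.3.1 to GRCm38 (mm10, GENCODE vM23) and deposited raw UMI counts per gene and spot under tissue, with no normalization. Their Seurat 5.0.1 results were not used. The reference is C57BL/6J, and the hosts' Collaborative Cross alleles were not analysed here. Any effect of differing alignment of these alleles on the counts of either strain was not tested. Groups came from the labeled genotype. Pairs of sections had 2016 to 2793 spot barcodes in common, as capture areas reuse 1 barcode layout. UMIs were summed over the spots of a section. edgeR 4.0.16 in R 4.3.3 then tested the strain, without other terms, by its quasi-likelihood F-test on TMM-scaled counts of the 15572 of 32285 genes that passed filterByExpr, with Benjamini-Hochberg adjustment. Each SE was worked back from this test, as the absolute log2 fold change over the square root of F, and is no separate estimate of error. Shares of spots were the exact expectation of thinning to 10000 UMIs. Shared spots were compared within 10 depth strata with exact Poisson intervals (scipy 1.17.1). Section values were compared by two-sided exact permutation, and with 2 sections per strain p cannot fall below 0.333. Intervals are at 95% and cover counting error alone. The steps were tested on simulated data. The 7 genes, the gene lists and the tests were chosen with earlier results of these data known, and the promoter motifs, the adjacent spot counts the interior-only counts of passing genes and the edge ratios without spots over skin, muscle or fat were added later. All 7 genes are named. In each list the genes past the threshold, or otherwise the 3 with the lowest unadjusted p, are named, with others chosen after their values were seen. Of the genes most like each member, 2 are not reported here. Alternatives were library size alone, DESeq2 1.42.0 (size factors and Wald test), limma-voom 3.58.1, no filter, the replicate number as a block, leaving out spots under 10000 UMIs or over skin, muscle or fat, interior spots, other depths and strata, and each section left out.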

Additional observations from a re-analysis of the deposited data

Results flagged for a closer look

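The edge to interior ratio of Klrc1 and of Klre1 ran in opposite directions in the strains, above 1 in both CC075F1 sections and below 1 in both CC080F1 sections. The log2 ratio was higher in CC075F1 by 1.12 for Klrc1 (means 0.56 and -0.56) and by 1.42 for Klre1 (means 0.55 and -0.88). With 2 sections per strain the exact permutation p was 0.333 for each, the smallest this design allows, so the difference was in effect not tested. The same change of side was found for 11.0% of 14931 genes. Ratios were higher in both CC075F1 sections for 6 of the 7 genes, all but Klrb1c, and for 36.6% of the 14931 genes. The log2 difference between strains was 1.18 and 0.64 for Klrc1 and 0.88 and 1.04 for Klre1 when the edge was taken as 2 or 5 grid steps. An empty area reached into both CC080F1 sections and its rim counts as edge, and its part in the result was not tested.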

How the results depend on the processing

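The number of the 7 genes passing the strain test (0) stayed 0 with library size alone, DESeq2 size factors, limma-voom, spots of at least 10000 UMIs and interior spots, and rose to 1 with the DESeq2 Wald test (Klrc1, adjusted p = 0.00324) and to 3 each with no filter on low counts and with the replicate block (Klrk1, Klrd1 and Klrc1 in both). Leaving out each section in turn gave 0 to 3, with 3 without CC080F1 replicate 2. Over the whole table (14 genes), 40 passed with library size alone, 194 with DESeq2's Wald test, 480 with no filter, 287 with the replicate block, and 11 to 207 when 1 section was left out. The replicates of the strains share only a number, and over genes the difference between replicates 1 and 2 correlated between strains at r = 0.35. Klrb1c reversed with limma-voom (0.28), with the replicate block (0.25) and without CC075F1 replicate 1 (0.03). With 1 section left out it ran from -0.91 to 1.55, Ncr1 from -1.76 to 1.26 and Eomes from -0.90 to 0.17, each positive without CC080F1 replicate 2. Library size alone moved the median over all genes tested from -0.02 to -0.31 on the log2 scale. The cause of these changes was not tested. The number of genes with higher shares of spots in both CC075F1 sections (4) ran from 3 to 6 and that of pairs above 1 in every section (12) from 11 to 17 over the alternatives. Interior-only counts and edge ratios without spots over skin, muscle or fat were chosen after seeing the data, and the latter moved the strain difference by less than the spread between sections for all 7 genes. Depth limits Ncr1 and Klrb1c most, with 33 and 35 UMIs in CC080F1 replicate 1.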
